A study of Schizosaccharomyces pombe with 72 samples.

Results

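The 10 genes described here belong to the mating programme of the fission yeast Schizosaccharomyces pombe: ste11 (SPBC32C12.02), the M-factor precursor genes mfm1 (SPAPB8E5.05), mfm2 (SPAC513.03) and mfm3 (SPBPJ4664.03), the exporter gene mam1 (SPBC25B2.02c), the receptor genes mam2 (SPAC11H11.04) and map3 (SPAC3F10.10c), the adhesin gene map4 (SPBC21D10.06c), the protease gene sxa2 (SPAC1296.03c) and the formin gene fus1 (SPAC20G4.02c). They were chosen by name for their place in mating, and each was followed through its sense entry and through the antisense entry of the same length, so that 10 of 6997 sense entries and 10 antisense entries were examined out of 13994 entries in all. The deposited tables gave estimated counts and TPM (a level scaled by length and to 1000000 per library) for polyadenylated RNA of 72 libraries in 24 groups of 3, from 4 experiments called A to D, with A run in 2 batches (A-b1 and A-b2). Here levels of 1 gene are given as CPM, the estimated count scaled to a library sum of 1000000, and levels of different genes are compared only as TPM.

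All strains were h+ ade6-M216 ura4-D18 leu1-32 and grew to mid-log phase in rich YES medium at 32 °C. In A-b1, strains deleted for the chromatin remodeler genes fft2, fft3, hrp1, hrp3, mit1, rrp1, rrp2, irc20 or swr1 (each kanMX) were set against WT. In A-b2, fft1Δ and snf22Δ (both hygMX) were set against WT. Experiment B held hrp1Δ, hrp3Δ (both kanMX) and the double mutant hrp1Δhrp3Δ (hrp1 replaced by kanMX, hrp3 deleted) with WT. Experiment C held 2 strains in which the C-termini of Hrp1 and Hrp3 were exchanged in the double mutant background, labelled hrp3-CT(hrp1) (hrp1 replaced by kanMX) and hrp1-CT(hrp3) (hrp3 deleted), with WT. Experiment D held hrp1Δhrp3Δ, a deletion of prf1 (a transcription elongation factor) and the triple mutant hrp1Δhrp3Δprf1Δ with WT. Each genotype was 1 strain, so that p-values measure the spread between the 3 libraries of that strain. The labels do not say how separate the cultures were.

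Fission yeast cells have a P or an M mating type, and h+ denotes P. On nitrogen starvation Ste11, an HMG-box transcription factor, switches on the genes for pheromones, receptors and their helpers. M cells secrete the lipid-modified peptide M-factor and read P-factor through Mam2, P cells secrete P-factor and read M-factor through Map3, and both receptors feed a MAP kinase cascade that acts on Ste11 again. In growing cells this programme is held low.

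The libraries held between 3657 and 38590464 estimated counts. In experiment D, 3 libraries had profiles with a correlation under 0.8 to the others, namely WT replicate 3, hrp1Δhrp3Δ replicate 1 and hrp1Δhrp3Δprf1Δ replicate 2, which had only 3657 counts; results of D are given with and without them. The deleted gene was at 0 in every library of mit1Δ, irc20Δ, fft1Δ and snf22Δ and, for hrp3, of the double and triple mutants. In other groups reads on the deleted gene remained, all below WT, at a mean of 68.9% of WT for hrp1 in hrp1Δ of A-b1, 51.6% for swr1 in swr1Δ, 45.4% for hrp3 in hrp3Δ of B, 18.98% for hrp1 in hrp1Δ of B, 20.1% for hrp1 in hrp1Δhrp3Δ of B, and 15.1% and 15.5% in fft3Δ and rrp2Δ. In D the remaining reads overlapped WT: prf1 was at 53.8 to 61.8 CPM in prf1Δ and 0 to 45.1 CPM in hrp1Δhrp3Δprf1Δ, against 3.04 to 152.9 CPM in WT, and hrp1 was at 1.35 to 23.5 CPM in hrp1Δhrp3Δ and 0 to 64.6 CPM in hrp1Δhrp3Δprf1Δ, against 2.54 to 126 CPM in WT. Each entry was counted over its full length, which for the mating genes described here is the coding length. Which part of each deleted gene was removed was not examined here. The deleted gene was not lower than in WT, against the label, in 3 groups of A-b1. The fft2 entry was at 33.0 to 69.5 CPM in the fft2Δ-labelled libraries, against 24.8 to 28.2 CPM in WT. The rrp1 entry was at 41.7 to 52.1 CPM in the rrp1Δ-labelled libraries, against 30.9 to 39.1 CPM in WT, and the hrp3 entry at 21.2 to 38.3 CPM in the hrp3Δ-labelled libraries of A-b1, against 21.3 to 25.7 CPM in WT. In experiment C the hrp1 entry was at 96.3% of the WT mean in the hrp3-CT(hrp1)-labelled libraries and at 48.7% in the hrp1-CT(hrp3)-labelled ones, while the hrp3 entry was at 68.0% and 134% of the WT mean in these 2 groups. These groups are called by their labels throughout.

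In the 15 WT libraries the members lay low and close together once length was taken into account. The median level was 21.3 TPM for mfm2, 8.12 TPM for ste11, 5.69 TPM for sxa2, 5.42 TPM for mam1, 3.36 TPM for map4, 2.74 TPM for map3, 2.33 TPM for mam2 and 2.09 TPM for fus1. The mfm genes are the exception to any ranking, because their coding lengths of 126 to 135 bases left an effective length of only 15.2 to 61.7 bases, on which a TPM rests on few counts. The mfm1 entry had a WT median of 0.716 TPM and was at 0 in 7 WT libraries, and mfm3 was at 0 in 14 of them. Genes of both mating types were present in these h+ strains. Over all 72 libraries the summed level of 7 M-cell genes (mam1, mam2, mam3, the 3 mfm genes and sxa2) had a median of 119.8 CPM, and that of 3 P-cell genes (map2, map3 and map4) had a median of 32.9 CPM. These sums cover different numbers and lengths of genes, so they show presence only and are not compared with each other. The mating-type gene entries mat1-Mc and mat3-Mc, near-identical copies that share reads, were above 0 in 19 libraries and never above 2.33 CPM, and mat1-Mi and mat3-Mi were at 0 in all. Fewer cells of a mating type and less RNA per cell cannot be told apart in such bulk libraries.

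**Figure D1:**
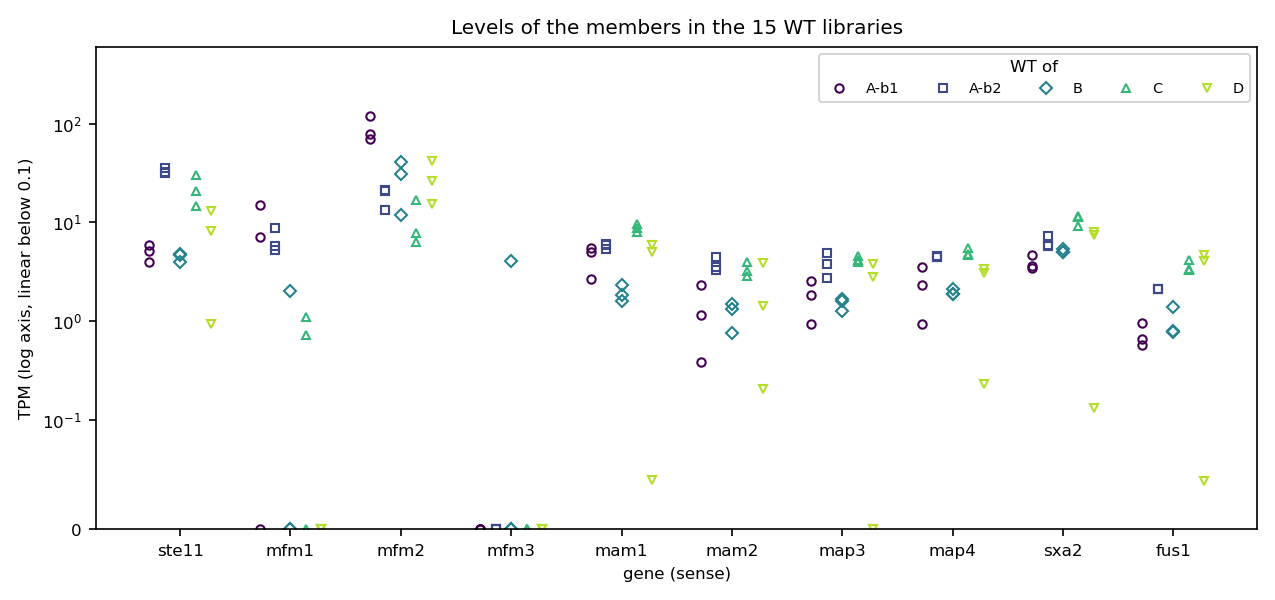
Level of each of the 10 genes (sense, TPM, log axis that is linear below 0.1) in the 15 WT libraries, 3 for each of the 5 WT groups, 1 symbol per library. The mfm2 symbols lie highest with a median of 21.3 TPM, mfm3 is at 0 in 14 libraries, and the lowest symbol of mam1, mam2, map4, sxa2 and fus1 is WT replicate 3 of experiment D.

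The WT strain did not give 1 level of ste11. Its mean was 16.03 ± 3.02 CPM in A-b1, 87.6 ± 3.48 CPM in A-b2, 13.8 ± 1.14 CPM in B, 59.9 ± 21.9 CPM in C and 22.9 ± 15.5 CPM in D (SD, n = 3 each), a 6.37-fold range between group means. The same range was 2.34-fold for map4 and sxa2, 2.43-fold for map3, 2.73-fold for mam2, 4.11-fold for fus1 and 4.25-fold for mam1. For ste11 the 2 batches of experiment A already differed, at 16.03 CPM in A-b1 and 87.6 CPM in A-b2. Between different experiments, experiment and batch cannot be told apart. Every comparison with WT below used the WT of the same experiment or batch.

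Each comparison was tested with edgeR's quasi-likelihood test on the estimated counts, with Benjamini-Hochberg adjustment over all sense and antisense entries tested, and a gene was called at an adjusted p under 0.05. Of the members' sense entries, 8 passed the filter on low counts and 7 did in A-b2, where mfm2 dropped out. The mfm1 and mfm3 entries never passed it and were not tested. Fold changes are on the log2 scale after TMM scaling, and can differ from the ratio of the CPM. The scaling used all entries, and the median protein-coding gene shifted by -0.15 in hrp3Δ and -0.21 in hrp1Δhrp3Δ of B, by -0.24 in the hrp1-CT(hrp3)-labelled libraries, and by -0.67, -0.57 and -0.86 in hrp1Δhrp3Δ, prf1Δ and hrp1Δhrp3Δprf1Δ of D. Values with TMM factors from the protein-coding sense entries alone are given where they change a call.

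Over the 19 comparisons with WT, 29 of 150 tested pairs of a member and a mutant were called higher and 9 lower. The share of all protein-coding genes called ran from 0.0206% in fft1Δ to 56.6% in the hrp1-CT(hrp3)-labelled libraries. It is given below for each comparison, and the pooled count is not read against it. Comparisons of 1 experiment or batch share WT libraries, so the pairs are not independent. The ste11 gene accounted for 8 of the higher and 5 of the lower calls, and map4 for 8 higher calls and no lower one. The remaining higher calls were 4 each of mam2 and sxa2, 3 of mam1 and 2 of map3. The remaining lower calls were 1 each of mfm2, mam1, map3 and fus1.

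**Figure D2:**
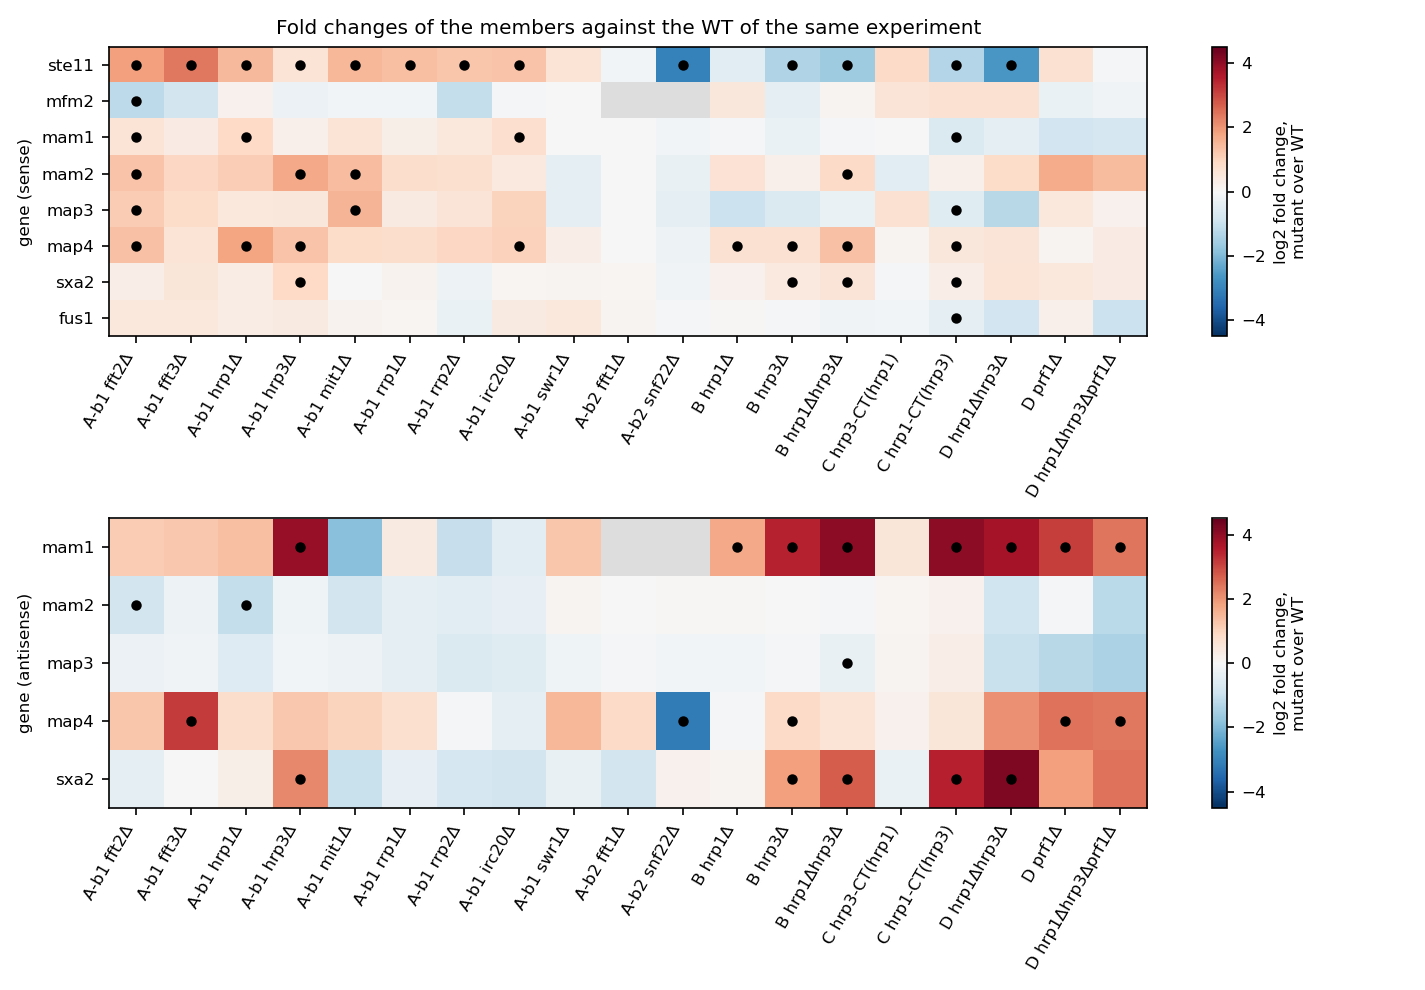
Log2 fold change of each tested member against the WT of the same experiment (rows, genes; columns, the 19 mutant groups named by experiment and label), for the sense entries above and 5 antisense entries below. A black dot marks an adjusted p under 0.05 and grey an entry not tested. The ste11 row is red in the called groups of A-b1 and blue in those of A-b2, B, C and D, and the mam1 antisense row is darkest in hrp1Δhrp3Δ of B (4.03) and in the hrp1-CT(hrp3)-labelled libraries (4.02).

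In A-b1 the calls were spread unevenly over the 9 mutants. Called members were 6 of 8 in the fft2Δ-labelled libraries (5 higher, 1 lower), beside 34.3% of the 4870 protein-coding genes tested. They were 4 of 8 in the hrp3Δ-labelled libraries, beside 35%, and 3 of 8 in hrp1Δ, mit1Δ and irc20Δ, beside 26.3%, 11.4% and 24.6%. Only ste11 was called in fft3Δ, in the rrp1Δ-labelled libraries and in rrp2Δ, beside 24.1%, 1.13% and 7.33%. In swr1Δ edgeR called 0 of 8, beside 4.62%, with ste11 alone at an unadjusted p under 0.05 and 0 calls by DESeq2. The 9 comparisons share the same 3 WT libraries, so they are not independent of each other. WT replicate 1 weighed most on them: without it 16 of the 27 sense and antisense calls of A-b1 were lost. The members called then became 1 in the fft2Δ-labelled libraries, 2 in the hrp3Δ-labelled libraries, 1 in mit1Δ and 0 in rrp2Δ and irc20Δ. That library was also the deepest of the WT group, with 7990518 estimated counts beside 1127427 and 1550782 in replicates 2 and 3. In the fft2Δ-labelled libraries the log2 fold change without it went from 1.33 to 0.79 for map4 and from 1.14 to 0.68 for map3. For mam2 (1.27 to 1.25) and mfm2 (-1.19 to -1.20) the size stayed and the call was lost. How far its own values or the loss of depth ended each call was not tested.

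The transcription factor gene ste11 was higher than WT in 8 of 9 mutants of A-b1. It was highest in fft3Δ, with 74.5, 75.8 and 79.8 CPM against 14.4, 19.5 and 14.2 CPM in WT, a log2 fold change of 2.37 ± 0.23 (SE, adjusted p = 7.18e-08, edgeR). All 3 fft3Δ libraries lay above every other library of the batch. In the fft2Δ-labelled libraries it had 45.8, 50.8 and 57.9 CPM (log2 fold change 1.85 ± 0.23, adjusted p = 4.53e-06).

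The next 5 groups in level could not be told from their neighbours, since the library ranges overlapped between each and the next: hrp1Δ with 44.1 ± 8.46, mit1Δ with 44.0 ± 4.34, the rrp1Δ-labelled libraries with 39.6 ± 4.24, irc20Δ with 38.2 ± 6.49 and rrp2Δ with 35.3 ± 3.61 CPM (SD, n = 3 each). Their log2 fold changes were 1.45, 1.51, 1.35, 1.30 and 1.25. Every library of these 5 groups had more ste11 RNA than every WT library. The hrp3Δ-labelled libraries followed with 22.5, 24.7 and 44.7 CPM, a log2 fold change of 0.62 ± 0.24 (adjusted p = 0.0460, edgeR) whose call ended without WT replicate 1 (0.50), WT replicate 3 (0.57), or their own replicate 2 (0.68) or 3 (0.46). Without WT replicate 1 the calls in rrp2Δ and irc20Δ ended too, with log2 fold changes of 1.14 and 1.19, as they did without rrp2Δ replicate 1 (1.16) and irc20Δ replicate 2 (1.28). The swr1Δ libraries, at 29.0, 16.6 and 22.5 CPM, overlapped WT, and their log2 fold change of 0.60 ± 0.24 was not called (adjusted p = 0.177).

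In A-b2 ste11 fell in snf22Δ, which lacks an ATPase of the SWI/SNF complex. The snf22Δ libraries held 9.60, 10.3 and 10.4 CPM, against 85.1, 86.1 and 91.5 CPM in WT. The log2 fold change was -3.04 ± 0.12 (adjusted p = 5.05e-10, edgeR), the largest of any member's sense entry in the 19 comparisons, and it ranged only from -3.07 to -2.997 over 12 alternatives. It was the 1 called member of 7 tested in snf22Δ, beside 42.3% of 4847 protein-coding genes. In fft1Δ, with 95.2, 75.9 and 74.5 CPM, ste11 overlapped WT (log2 fold change -0.11 ± 0.08), and edgeR called 0 of 7 members, beside 0.0206%, with 0 at an unadjusted p under 0.05 and 0 by DESeq2.

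**Figure D3:**
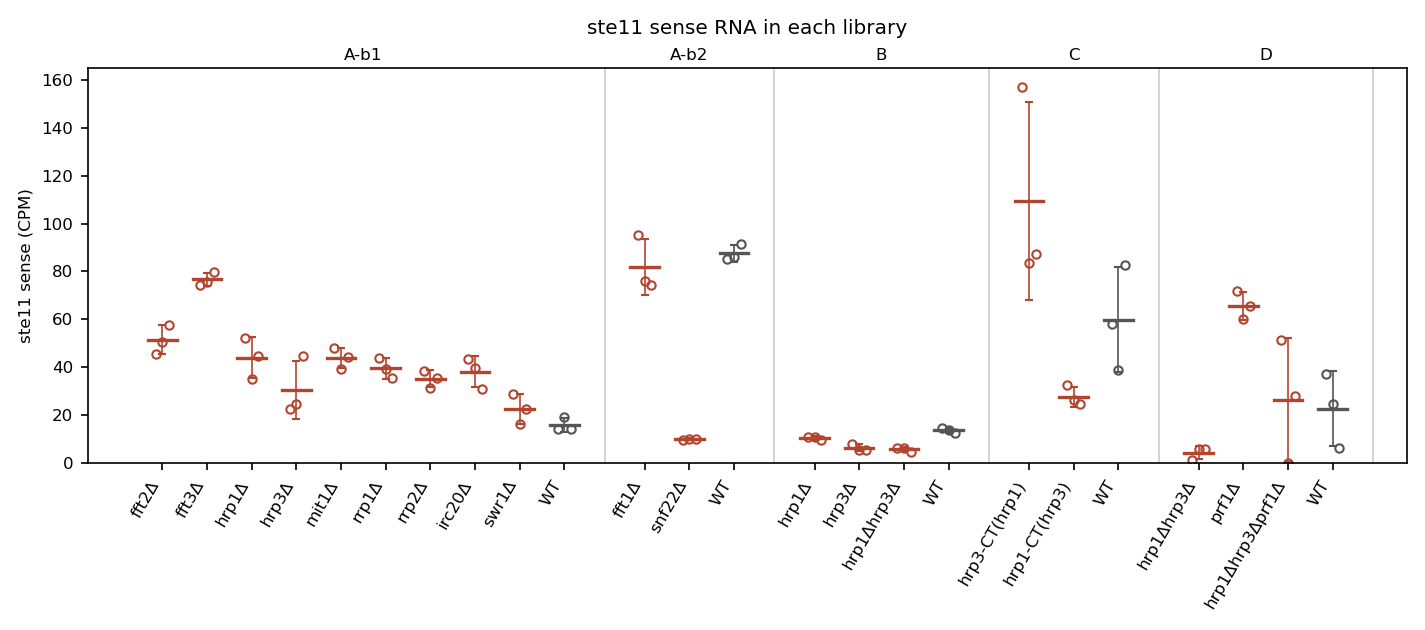
ste11 sense RNA (CPM) in all 72 libraries, 1 open circle per library, with the group mean (bar) and SD (error bar, n = 3), mutants in red and WT in grey, by experiment and batch. The fft3Δ libraries reach 74.5 to 79.8 CPM over a WT of 14.2 to 19.5 CPM in A-b1, and the snf22Δ libraries stay at 9.60 to 10.4 CPM under a WT of 85.1 to 91.5 CPM in A-b2.

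In experiment B ste11 fell with the loss of Hrp3, a CHD-type remodeler whose paralog is Hrp1. The hrp3Δ libraries had 8.10, 5.77 and 5.68 CPM, and the hrp1Δhrp3Δ libraries 6.51, 6.23 and 4.85 CPM, against 14.7, 14.1 and 12.5 CPM in WT. The log2 fold changes were -1.35 ± 0.18 in hrp3Δ (adjusted p = 3.10e-05) and -1.59 ± 0.18 in hrp1Δhrp3Δ (adjusted p = 4.07e-06, edgeR). The hrp1Δ libraries lay between, at 11.1, 11.1 and 9.70 CPM, all below WT, with a log2 fold change of -0.52 ± 0.17 that was not called (adjusted p = 0.0575). The hrp3Δ level was lower than that of hrp1Δ (-0.83 ± 0.18, adjusted p = 0.00239), whereas hrp1Δhrp3Δ and hrp3Δ overlapped (-0.24 ± 0.19, adjusted p = 0.445).

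In hrp1Δ and hrp3Δ the ste11 fold change thus had opposite signs in A-b1 and B, with that of hrp1Δ in B not called. The test of the difference, fitted over both sets of libraries, gave -2.04 ± 0.26 on the log2 scale for hrp1Δ in B minus hrp1Δ in A-b1 (adjusted p = 0.00103, edgeR) and -1.77 ± 0.31 for hrp3Δ (adjusted p = 0.00272), where the hrp3Δ-labelled libraries of A-b1 are those whose hrp3 entry was not lower than in WT. Both differences kept their call in all 15 alternatives, which were chosen after seeing the data. Of the other members, mam1 differed for hrp1Δ by -1.07 ± 0.26 (adjusted p = 0.0299), a call lost in 8 of 15 alternatives. Thus 2 of 8 members differed for hrp1Δ, beside 8.42% of protein-coding genes, and 1 of 8 for hrp3Δ, beside 14.8%.

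In experiment C the 2 swap strains moved apart. The hrp3-CT(hrp1)-labelled libraries had 157, 83.7 and 87.3 CPM of ste11 and the hrp1-CT(hrp3)-labelled ones had 32.5, 26.3 and 24.6 CPM, against 58.3, 38.9 and 82.6 CPM in WT. Each swap lay wholly on its own side of the WT libraries. The hrp1-CT(hrp3)-labelled level was lower than WT by a log2 fold change of -1.33 ± 0.27 (adjusted p = 0.00101, edgeR), and the hrp3-CT(hrp1)-labelled one was at 0.87 ± 0.25 (adjusted p = 0.0518), short of the threshold. Set against each other directly, hrp1-CT(hrp3) over hrp3-CT(hrp1), the labelled groups differed by -2.20 ± 0.27 (adjusted p = 2.05e-05). Which swap was low rests on the labels alone, and the hrp1 and hrp3 entries of these libraries go against them.

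In experiment D ste11 was again low in the double mutant. The hrp1Δhrp3Δ libraries had 1.35, 5.97 and 6.20 CPM, against 37.4, 24.6 and 6.59 CPM in WT, with a log2 fold change of -2.61 ± 0.67 (adjusted p = 0.0153, edgeR). Without the 3 libraries of poor profile it was -2.44 ± 0.37 (adjusted p = 0.00126). The call ended without WT replicate 1 (-2.34) or WT replicate 2 (-2.68). It was the only 1 of 8 members called, beside 0.712% of 4918 protein-coding genes. The difference between the double mutant's effect in B and in D was not called (1.04 ± 0.59, B minus D, adjusted p = 1.00), and edgeR called 0 of 8 members for that difference, beside 0%, with 0 at an unadjusted p under 0.05.

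The prf1Δ libraries had 71.8, 60.2 and 65.4 CPM of ste11, all above WT, but the log2 fold change of 0.68 ± 0.61 was not called. In hrp1Δhrp3Δprf1Δ the values of 51.4, 0 and 28.1 CPM spanned WT, the 0 being the library of 3657 counts (log2 fold change -0.05 ± 0.65). In both groups edgeR called 0 of 8 members, beside 4.82% in prf1Δ and 4.09% in hrp1Δhrp3Δprf1Δ, with mam2 alone at an unadjusted p under 0.05 in each. DESeq2 called 1 member in prf1Δ and 0 in hrp1Δhrp3Δprf1Δ. Without the 3 poor libraries 2 members were called in prf1Δ, mam2 (1.69 ± 0.42, adjusted p = 0.00683) and mam1 (-1.18 ± 0.30, adjusted p = 0.00842), and 1 in hrp1Δhrp3Δprf1Δ, mam2 (1.55 ± 0.46, adjusted p = 0.0205). Between hrp1Δhrp3Δprf1Δ and prf1Δ edgeR called 0 of 8, beside 0%, with 0 at an unadjusted p under 0.05 and 0 by DESeq2.

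The M-factor precursor genes gave little signal. The mfm2 entry, whose product is a short prepropeptide, had a median of 3.00 CPM over the 72 libraries. It was called once, in the fft2Δ-labelled libraries, with 1.00, 2.69 and 1.09 CPM against 4.51, 6.21 and 3.22 CPM in WT (log2 fold change -1.19 ± 0.41, adjusted p = 0.0317, edgeR). The groups did not overlap, and the call was lost in 7 of 12 alternatives, among them without WT replicate 1 (-1.20) or 2 (-1.03) and without replicate 1 (-0.96) or 3 (-1.04) of the fft2Δ-labelled libraries. The mfm1 entry reached at most 23.8 counts in a library and mfm3 at most 3.87, and mfm3 was above 0 in only 11 of 72 libraries.

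The exporter gene mam1, whose ABC transporter carries M-factor out of the cell, was called higher in 3 groups of A-b1 and lower in 1 of C. In hrp1Δ it had 85.8, 77.2 and 81.0 CPM, against 30.3, 53.2 and 48.4 CPM in WT, with no overlap (log2 fold change 0.91 ± 0.23, adjusted p = 0.00704, edgeR). In irc20Δ (77.7, 72.6 and 63.2 CPM) the log2 fold change was 0.74 ± 0.23, and in the fft2Δ-labelled libraries (30.7, 89.0 and 69.9 CPM), which overlapped WT, it was 0.62 ± 0.23. All 3 calls ended without WT replicate 1, at 0.62 in hrp1Δ, 0.46 in irc20Δ and 0.33 in the fft2Δ-labelled libraries. They ended too without hrp1Δ replicate 1 (0.85), without irc20Δ replicate 1 (0.75) or 2 (0.73), and without replicate 2 (0.33) or 3 (0.67) of the fft2Δ-labelled libraries, where protein-coding scaling ended the call as well (0.59, adjusted p = 0.0671).

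In B its CPM did not separate mutants from WT, with group means of 18.97, 17.9 and 21.7 CPM in hrp1Δ, hrp3Δ and hrp1Δhrp3Δ and 18.1 CPM in WT. In C it was lower in the hrp1-CT(hrp3)-labelled libraries, with 54.4, 59.0 and 57.9 CPM against 79.1, 67.8 and 83.6 CPM in WT (-0.65 ± 0.08, adjusted p = 1.91e-05). All 3 of these libraries lay below every WT library, and with protein-coding scaling the log2 fold change was -0.41 (adjusted p = 0.000742).

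Of the 2 pheromone receptor genes, mam2 had 4 higher calls and no lower one. In the hrp3Δ-labelled libraries of A-b1 it had 11.0, 12.9 and 2.13 CPM, against 2.88, 0.887 and 4.51 CPM in WT (log2 fold change 1.70 ± 0.40, adjusted p = 0.00135, edgeR), and replicate 3 fell within the WT range. In mit1Δ it had 9.80, 5.39 and 7.75 CPM, above every WT library (1.39 ± 0.41, adjusted p = 0.0363). In the fft2Δ-labelled libraries, at 4.01, 8.63 and 7.64 CPM, the groups overlapped (1.27 ± 0.40, adjusted p = 0.0195). In hrp1Δhrp3Δ of B it had 3.63, 5.95 and 8.28 CPM, against 2.96, 3.06 and 1.69 CPM in WT (0.87 ± 0.32, adjusted p = 0.0336). The mit1Δ call ended without WT replicate 1 (1.36) or 2 (1.18) or mit1Δ replicate 1 (1.22) or 3 (1.42). That in the fft2Δ-labelled libraries ended without WT replicate 1 (1.25) or 2 (1.06) or their own replicate 2 (1.12), and that in B without WT replicate 3 (0.68) or hrp1Δhrp3Δ replicate 2 (0.86) or 3 (0.54). The widest gap by level was in prf1Δ, at 21.2, 17.7 and 31.5 CPM against 7.77, 2.99 and 1.01 CPM in WT. There the groups did not overlap, but the log2 fold change of 1.67 ± 0.59 was short of the threshold with all libraries (adjusted p = 0.0552); it was called with protein-coding scaling (2.22, adjusted p = 0.0254) and by DESeq2 (2.13, adjusted p = 0.0196).

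The other receptor gene, map3, was called higher in 2 groups of A-b1 and lower in 1 group of C. In mit1Δ it had 13.5, 7.05 and 10.1 CPM, against 2.50, 4.43 and 5.16 CPM in WT (log2 fold change 1.53 ± 0.40, adjusted p = 0.0217, edgeR), and in the fft2Δ-labelled libraries 4.01, 9.69 and 9.83 CPM (1.14 ± 0.39, adjusted p = 0.0328). Both calls ended without WT replicate 1 (1.06 in mit1Δ, 0.68 in the fft2Δ-labelled libraries), and also without mit1Δ replicate 1 (1.32) or replicate 2 of the fft2Δ-labelled libraries (0.99). In C the hrp3-CT(hrp1)-labelled libraries had 13.3, 13.7 and 13.3 CPM and the hrp1-CT(hrp3)-labelled ones had 4.59, 8.46 and 7.15 CPM, against 8.17, 8.12 and 9.0002 CPM in WT. The first group lay above every WT library without being called (0.68 ± 0.20, adjusted p = 0.0576). The second overlapped WT and was called lower (-0.56 ± 0.21, adjusted p = 0.0363), a call that ended with protein-coding scaling (-0.31, adjusted p = 0.232), without WT replicate 1 (-0.61) or 3 (-0.55) and without its own replicate 1 (-0.40) or 3 (-0.62). The difference between the swaps, -1.24 ± 0.21, was called (adjusted p = 0.000261). In B, map3 was below every WT library in hrp1Δ, with 2.01, 2.10 and 1.89 CPM against 2.96, 3.497 and 3.93 CPM, again without a call (-0.96 ± 0.31, adjusted p = 0.0584). The hrp1Δhrp3Δ libraries, at 4.51, 2.91 and 3.67 CPM, were above those of hrp1Δ, a difference of 0.67 (adjusted p = 0.0872) that was called with protein-coding scaling (0.83, adjusted p = 0.0417).

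The P-cell adhesin gene map4 was higher in mutants of the CHD remodelers in both experiments that deleted them singly. In A-b1 the hrp1Δ libraries had 51.3, 41.5 and 48.8 CPM, against 7.51, 16.8 and 21.3 CPM in WT, a log2 fold change of 1.76 ± 0.31 (adjusted p = 0.000403, edgeR). All 3 lay above every other library of the batch. The hrp3Δ-labelled libraries had 39.4, 34.8 and 27.7 CPM (1.28 ± 0.32), the fft2Δ-labelled ones had 30.4, 33.3 and 22.9 CPM (1.33 ± 0.31) and the irc20Δ libraries had 30.0, 29.1 and 22.5 CPM (1.03 ± 0.32). Each of these groups lay above WT, and each of these 3 calls ended without WT replicate 1, which had the lowest map4 level of the 3 WT libraries, with log2 fold changes of 0.74, 0.79 and 0.49. The irc20Δ call also ended without irc20Δ replicate 1 (1.04) or 2 (0.98). The hrp1Δ call did not end without WT replicate 1.

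In B the map4 levels formed 3 steps. The hrp1Δhrp3Δ libraries had 46.1, 40.4 and 38.1 CPM, hrp3Δ had 30.2, 23.2 and 21.9 CPM, hrp1Δ had 25.9, 22.1 and 21.4 CPM, and WT had 12.8, 11.9 and 14.2 CPM. The single mutants overlapped each other and lay wholly above WT, and the double mutant lay wholly above both. The log2 fold changes against WT were 1.31 ± 0.15 in hrp1Δhrp3Δ (adjusted p = 3.80e-06), 0.67 ± 0.15 in hrp3Δ (adjusted p = 0.00241) and 0.67 ± 0.15 in hrp1Δ (adjusted p = 0.00968). The double mutant was higher than hrp3Δ by 0.64 ± 0.14 (adjusted p = 0.00944), a call that ended without hrp3Δ replicate 3 (0.55), and higher than hrp1Δ by 0.63 ± 0.14 (adjusted p = 0.00171). In C it was higher in the hrp1-CT(hrp3)-labelled libraries, with 46.8, 49.2 and 56.7 CPM against 29.9, 27.8 and 33.3 CPM in WT (0.53 ± 0.12, adjusted p = 0.00244). In D, with the 3 poor libraries left out, the log2 fold changes of 0.58 in hrp1Δhrp3Δ and 0.09 in prf1Δ were not called.

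The sxa2 gene, for a secreted carboxypeptidase that degrades P-factor, was called higher in 4 groups, each with hrp3 deleted by label, although the hrp3 entry was not below WT in the groups of A-b1 and C. It was not called in the other groups with hrp3 deleted, both in D. In the hrp3Δ-labelled libraries of A-b1 it had 29.0, 21.6 and 42.5 CPM, against 14.4, 12.4 and 14.2 CPM in WT (log2 fold change 0.89 ± 0.20, adjusted p = 0.00109, edgeR). In B it had 29.9, 28.5 and 27.8 CPM in hrp3Δ and 33.0, 34.5 and 32.4 CPM in hrp1Δhrp3Δ, against 17.4, 15.9 and 18.4 CPM in WT. No library overlapped WT in either case, and the log2 fold changes were 0.45 ± 0.11 (adjusted p = 0.00535) and 0.58 ± 0.11 (adjusted p = 0.000562). The hrp1Δ libraries of B, at 21.3, 22.3 and 23.2 CPM, were also above every WT library, but after scaling the difference of 0.20 was not called. Between hrp3Δ and hrp1Δ the difference of 0.25 (adjusted p = 0.0977) was called with protein-coding scaling (0.34, adjusted p = 0.0277). In C the hrp1-CT(hrp3)-labelled libraries had 49.1, 45.6 and 45.1 CPM, against 35.8, 26.6 and 33.3 CPM in WT (0.32 ± 0.12, adjusted p = 0.0404), a call lost in 8 of 12 alternatives, among them without WT replicate 2 (0.18) or 3 (0.31) and without replicate 1 (0.23), 2 (0.29) or 3 (0.35) of the labelled group. In D it had 12.2, 42.1 and 29.7 CPM in hrp1Δhrp3Δ, 36.2, 33.4 and 45.0 CPM in prf1Δ and 32.7, 0 and 38.3 CPM in hrp1Δhrp3Δprf1Δ, against 23.6, 26.5 and 1.01 CPM in WT. The prf1Δ libraries lay above every WT library, and none of the 3 log2 fold changes was called (0.60, 0.46 and 0.37, adjusted p = 0.666, 0.725 and 0.769, edgeR).

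**Figure D4:**
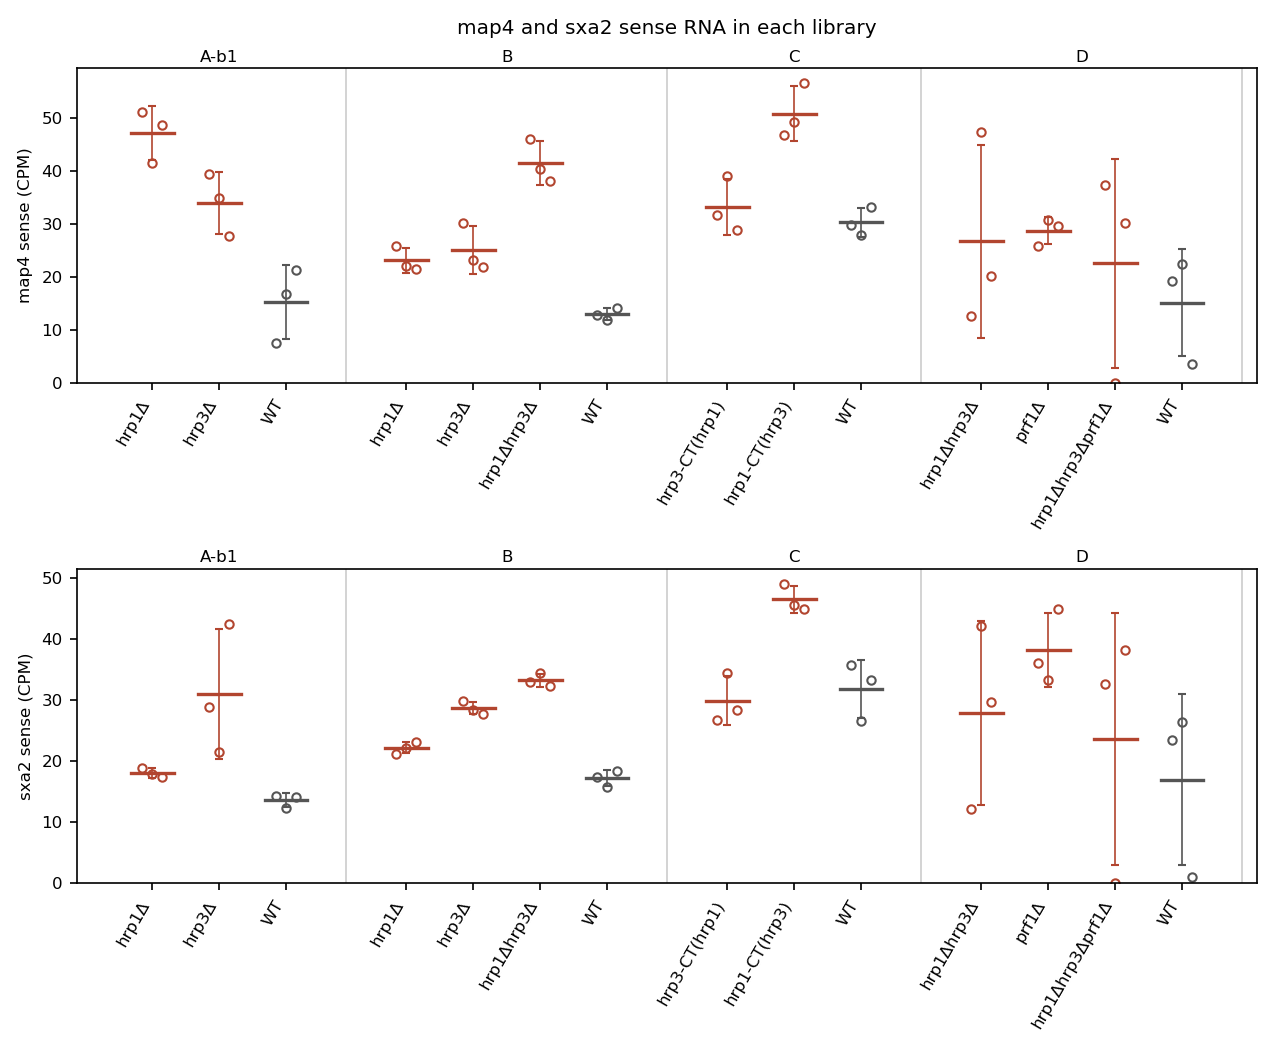
map4 (top) and sxa2 (bottom) sense RNA (CPM) per library in the hrp1, hrp3 and prf1 mutants and WT, with group means (bar) and SD (error bar, n = 3), mutants in red and WT in grey. In B, map4 lies at 38.1 to 46.1 CPM in hrp1Δhrp3Δ, 21.4 to 30.2 CPM in the single mutants and 11.9 to 14.2 CPM in WT.

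The fus1 gene encodes the formin that builds the actin focus at the site of cell fusion. Its estimated counts were whole numbers, within 0.001, in only 14 of 72 libraries, so kallisto divided reads between it and other entries, and its values are less certain. It was called only in the hrp1-CT(hrp3)-labelled libraries, with 27.8, 24.6 and 30.5 CPM against 38.1, 29.2 and 29.1 CPM in WT. The groups overlapped, and the log2 fold change of -0.44 ± 0.12 (adjusted p = 0.00861, edgeR) became -0.19 (adjusted p = 0.210) with protein-coding scaling.

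The counts of calls in B and C, read against the protein-coding genes, were as follows. In B, 1 of 8 members was called in hrp1Δ, 3 in hrp3Δ (2 higher, 1 lower) and 4 in hrp1Δhrp3Δ (3 higher, 1 lower), beside 10.4%, 37.4% and 50.5% of 4937 genes. Of all protein-coding genes 6.48% were called higher and 30.9% lower in hrp3Δ, and 7.94% higher and 42.6% lower in hrp1Δhrp3Δ. The median log2 fold change of the tested members was -0.17 in hrp3Δ, beside -0.15 for all protein-coding genes. In hrp1Δhrp3Δ it was 0.00592, beside -0.21. Between mutants of B, 1 of 8 was called for hrp3Δ against hrp1Δ, 1 for hrp1Δhrp3Δ against hrp3Δ and 3 for hrp1Δhrp3Δ against hrp1Δ, beside 32.3%, 7.41% and 42.1%. In C, 6 of 8 were called in the hrp1-CT(hrp3)-labelled libraries (2 higher, 4 lower), beside 56.6% of 4942 genes, and 6 of 8 between the swaps, beside 60.7%. The first count became 4 with protein-coding scaling, where the lower calls of map3 and fus1 ended. It became 5 with DESeq2, where the call of sxa2 ended. The share of all genes was taken with the main scaling only. In the hrp3-CT(hrp1)-labelled libraries edgeR called 0 of 8, beside 9.53%, with map3 and ste11 at an unadjusted p under 0.05 and 1 call by DESeq2.

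On the antisense strand mam1, sxa2 and map4 changed in several experiments, mam1 in 8 groups. Antisense RNA over a gene is read from the other strand, which the directional library kit keeps apart. Over mam1 it rose in 8 of 17 tested groups and fell in none. In B it stepped up with each deletion, with 45.4, 39.6 and 39.9 CPM in hrp1Δhrp3Δ, 27.3, 21.5 and 30.6 CPM in hrp3Δ and 5.68, 7.19 and 8.49 CPM in hrp1Δ, against 2.29, 2.19 and 1.46 CPM in WT. No 2 of these 4 groups overlapped. The log2 fold changes against WT were 4.03 ± 0.19 in hrp1Δhrp3Δ, 3.46 ± 0.19 in hrp3Δ and 1.69 ± 0.22 in hrp1Δ (adjusted p = 7.44e-10, 9.32e-09 and 0.000159, edgeR). The step between hrp1Δhrp3Δ and hrp3Δ, 0.57 ± 0.14, was called (adjusted p = 0.0182) but was lost without hrp1Δhrp3Δ replicate 1 (0.52) or 3 (0.59) or hrp3Δ replicate 1 (0.57) or 2 (0.45).

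The same antisense RNA appeared in the other experiments. In the hrp3Δ-labelled libraries of A-b1 it had 9.64, 3.48 and 17.0 CPM against 0.751, 0 and 0 CPM in WT (log2 fold change 3.93 ± 0.78, adjusted p = 0.000283), a contrast that rests on 2 WT libraries without a count. In C it had 27.5, 28.1 and 29.4 CPM in the hrp1-CT(hrp3)-labelled libraries and 2.51, 1.65 and 2.30 CPM in the hrp3-CT(hrp1)-labelled ones, against 1.68, 1.41 and 1.30 CPM in WT. The first group was called higher (4.02 ± 0.21, adjusted p = 3.71e-08) and the second was not (0.53 ± 0.24, adjusted p = 0.240). The median over the antisense entries of protein-coding genes moved alike, by 2.04 in the first group and 0.23 in the second. Here too, which swap was high rests on labels that the hrp1 and hrp3 entries go against.

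In D the mam1 antisense level was 9.46, 36.8 and 15.4 CPM in hrp1Δhrp3Δ and 19.8, 16.3 and 23.9 CPM in prf1Δ, against 1.88, 1.12 and 0.507 CPM in WT, with no overlap. It was 7.78, 0 and 15.1 CPM in hrp1Δhrp3Δprf1Δ. The log2 fold changes were 3.73 ± 0.66, 3.10 ± 0.65 and 2.41 ± 0.68 in the double, prf1 and triple mutants (adjusted p = 0.00274, 0.00361 and 0.0240), and 3.93, 3.28 and 2.70 without the 3 poor libraries. With all libraries the call in the triple mutant ended without WT replicate 1 (2.68) or 2 (2.20) or its own replicate 1 (2.635) or 3 (1.83). The triple mutant was not called against prf1Δ.

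Over sxa2 the antisense RNA of B rose in hrp1Δhrp3Δ and hrp3Δ, and hrp3Δ was higher than hrp1Δ (1.74 ± 0.27, adjusted p = 0.000207). In B it had 14.2, 14.7 and 13.0 CPM in hrp1Δhrp3Δ, 8.91, 6.14 and 6.23 CPM in hrp3Δ and 2.25, 1.498 and 2.16 CPM in hrp1Δ, against 1.21, 1.42 and 2.13 CPM in WT. The hrp1Δ libraries overlapped WT, and the other 2 groups lay apart from WT and from each other. The log2 fold changes were 2.74 ± 0.27 in hrp1Δhrp3Δ (adjusted p = 1.24e-06) and 1.85 ± 0.28 in hrp3Δ (adjusted p = 0.000114). In the hrp1-CT(hrp3)-labelled libraries of C it had 21.9, 22.3 and 21.0 CPM, against 1.75, 1.08 and 2.06 CPM in WT (3.497 ± 0.28, adjusted p = 7.80e-07), and in the hrp3Δ-labelled libraries of A-b1 10.4, 6.97 and 23.4 CPM against 3.504, 1.77 and 0 CPM in WT (2.17 ± 0.66, adjusted p = 0.0105). In D, hrp1Δhrp3Δ had 17.6, 17.3 and 13.5 CPM against 0.471, 1.49 and 0.507 CPM in WT (4.22 ± 0.78, adjusted p = 0.00322). The prf1Δ libraries, at 4.94, 3.09 and 9.11 CPM, lay above WT and were called only without the 3 poor libraries (2.25 ± 0.67, adjusted p = 0.0165), as was hrp1Δhrp3Δprf1Δ (2.85 ± 0.74, adjusted p = 0.0106).

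**Figure D5:**
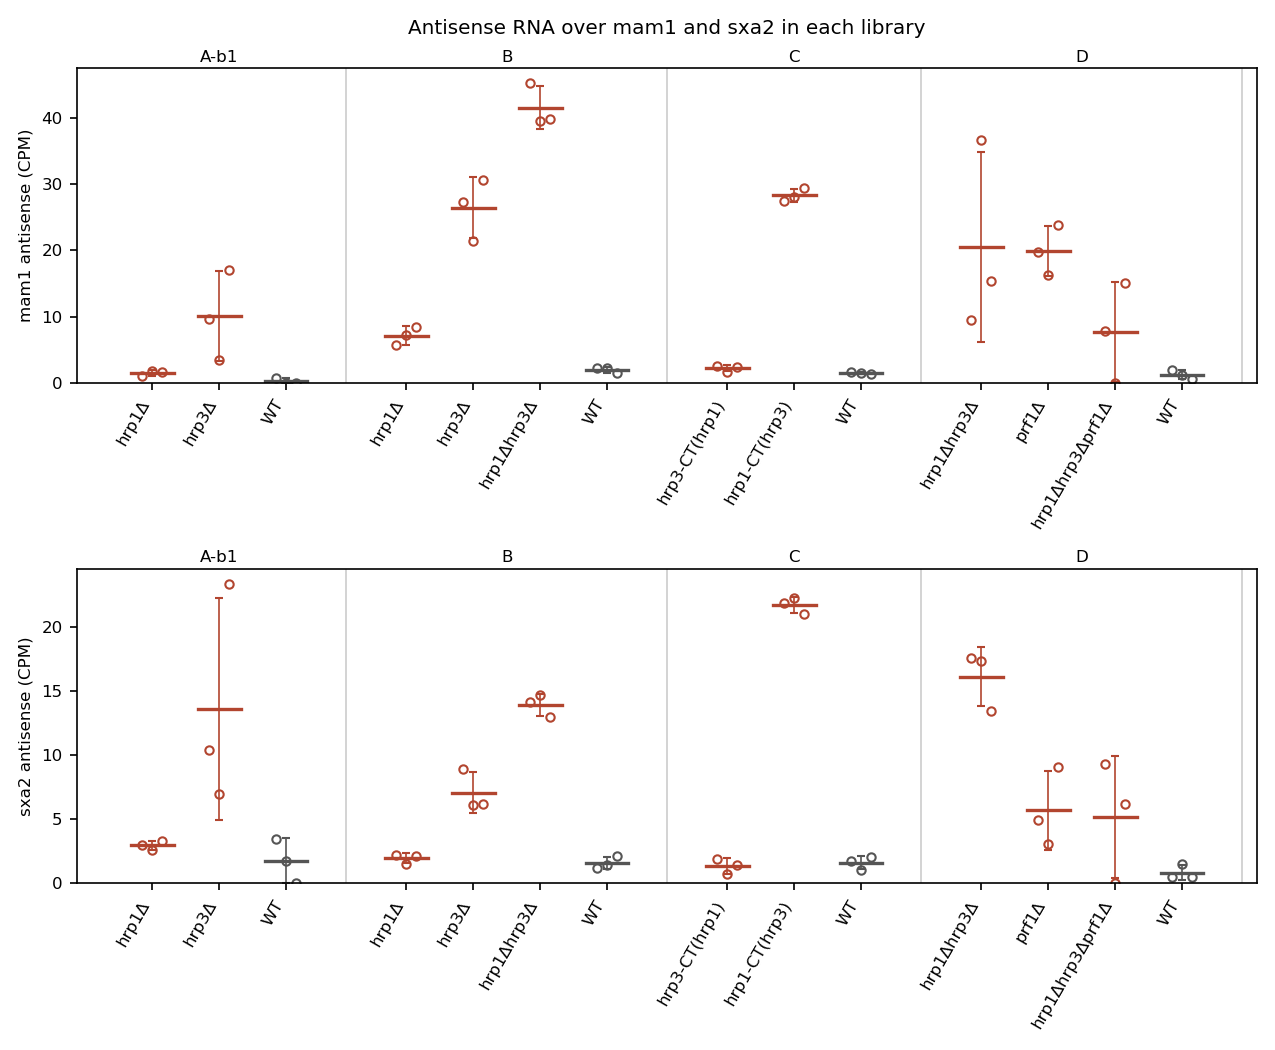
Antisense RNA (CPM) over mam1 (top) and sxa2 (bottom) per library in the hrp1, hrp3 and prf1 mutants and WT, with group means (bar) and SD (error bar, n = 3), mutants in red and WT in grey. Over mam1 the hrp1Δhrp3Δ libraries of B lie at 39.6 to 45.4 CPM and the hrp1-CT(hrp3)-labelled ones of C at 27.5 to 29.4 CPM, over WT libraries at 1.30 to 2.29 CPM.

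Both genes have a protein-coding neighbour whose annotated transcript overlaps theirs on the other strand, hbs1 for mam1 and cox4 for sxa2, so their antisense entries can hold reads of that neighbour. The sense entries of the neighbours did not rise with them in B. In hrp1Δhrp3Δ the log2 fold change was -0.46 ± 0.08 for hbs1 and -0.63 ± 0.08 for cox4, and in hrp3Δ it was -0.32 ± 0.08 and -0.40 ± 0.08. In the hrp1-CT(hrp3)-labelled libraries of C it was -0.33 ± 0.07 for hbs1 and -0.63 ± 0.06 for cox4. In the hrp3Δ-labelled libraries of A-b1, hbs1 was higher (0.52 ± 0.14, adjusted p = 0.00607) and cox4 lower (-0.997 ± 0.20). Longer neighbouring transcripts were not tested. Long non-coding RNAs are also annotated on the other strand, SPNCRNA.5728 over mam1 and SPNCRNA.2305 over sxa2. Others are annotated over ste11, map4, fus1 and mfm3, and the levels of all these were not examined here. For mam1, sense RNA was called lower in the hrp1-CT(hrp3)-labelled libraries, where its antisense RNA was higher. Its antisense RNA was also higher in hrp3Δ and hrp1Δhrp3Δ of B and in hrp1Δhrp3Δ of D. There mam1 sense RNA was not called, with log2 fold changes of -0.29, -0.10 and -0.40. For sxa2, sense and antisense RNA were both higher in hrp3Δ and hrp1Δhrp3Δ of B.

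The antisense entry of map4 moved in other mutants. In fft3Δ it had 8.84, 8.45 and 3.56 CPM, against 1.13, 0 and 0.645 CPM in WT (log2 fold change 3.13 ± 0.68, adjusted p = 0.00183, edgeR). In snf22Δ it had 0.166, 0.198 and 0.179 CPM, against 2.23, 1.97 and 1.26 CPM in WT (-3.16 ± 0.58, adjusted p = 0.000983), which is 3 counts in all against 43, a ratio of 0.0955 with a 95% interval of 0.0189 to 0.298 for counting error alone (exact Clopper-Pearson). Neither group overlapped WT, and map4 sense RNA was not called in either. It was also higher in hrp3Δ of B (0.86 ± 0.29, adjusted p = 0.0301) and in prf1Δ and hrp1Δhrp3Δprf1Δ of D (2.44 ± 0.70 and 2.36 ± 0.76), calls that were lost in 5, 3 and 4 of their alternatives. That in hrp3Δ ended without WT replicate 1 (0.71) or 2 (0.92) or hrp3Δ replicate 1 (0.91) or 2 (0.76). In D both ended without WT replicate 2 (2.02 in prf1Δ, 1.92 in the triple mutant), that in prf1Δ without its replicate 1 (2.47) or 3 (2.26), and that in the triple mutant without its replicate 1 (2.02) or 3 (2.53). Protein-coding scaling added map4 antisense calls in hrp1Δhrp3Δ of B (0.83, adjusted p = 0.0292, also against hrp1Δ at 0.87, adjusted p = 0.0270), in the hrp1-CT(hrp3)-labelled libraries (0.80, adjusted p = 0.0206) and in hrp1Δhrp3Δ of D (2.97, adjusted p = 0.0218), the last of which DESeq2 called as well (2.69, adjusted p = 0.0471).

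The antisense entries of mam2 and map3 stood above the sense strand in WT, with median levels of 9.86 TPM and 11.0 TPM against sense medians of 2.33 TPM and 2.74 TPM. They had 3 calls in all against WT, each lower. With protein-coding scaling both were called higher in the hrp1-CT(hrp3)-labelled libraries, mam2 at 0.44 (adjusted p = 0.00321) and map3 at 0.54 (adjusted p = 0.0275), with 40.8, 35.6 and 34.7 CPM over mam2 against 27.1, 26.8 and 29.0 CPM in WT, and 21.4, 22.0 and 21.5 CPM over map3 against 12.3, 16.2 and 16.7 CPM in WT. All 3 libraries lay above WT in both cases. The mam2 antisense difference between the swaps was also called with that scaling (0.39, adjusted p = 0.00705). Antisense RNA over mam2 was called lower in hrp1Δ of A-b1 (-1.09 ± 0.31, adjusted p = 0.0146) and in the fft2Δ-labelled libraries (-0.84 ± 0.30, adjusted p = 0.0391), groups that overlapped WT, whose replicate 2 was low at 3.55 CPM. The call in hrp1Δ ended without WT replicate 1 (-0.58) or hrp1Δ replicate 1 (-1.08), and that in the fft2Δ-labelled libraries without WT replicate 1 (-0.33) or 3 (-0.85) or any 1 of their own (-0.83 to -0.76). The call over map3 in hrp1Δhrp3Δ of B (-0.35 ± 0.11) became -0.13 (adjusted p = 0.383) with protein-coding scaling and ended without hrp1Δhrp3Δ replicate 1 (-0.29), while the CPM were 35.5, 41.4 and 36.9 in the mutant and 40.5, 37.1 and 35.1 in WT. The his6 gene overlaps map3 on the other strand. The map3 antisense counts were whole numbers, within 0.001, in only 54 of 72 libraries. Reads were thus divided with other entries, and the map3 antisense level is less certain than that of mam2, whose counts were whole in all 72.

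Antisense RNA over fus1 was at 0 in all 3 WT libraries of D and at 3.47, 1.79 and 1.71 CPM in hrp1Δhrp3Δ, 3.02, 3.68 and 3.83 CPM in prf1Δ and 5.94, 0 and 1.66 CPM in hrp1Δhrp3Δprf1Δ. Against a floor of 3 counts over the WT group the pooled levels were at least 6.13-fold, 10.4-fold and 10.1-fold higher, all called (adjusted p = 0.0138, 0.0103 and 0.0148, edgeR). All 3 calls ended without WT replicate 1 (adjusted p = 0.0927, 0.0636 and 0.0695), the first also without WT replicate 2 (0.0548) and the third without the triple mutant's replicate 1 (0.0980). These estimated counts were shared with other entries too, and caf16 overlaps fus1 on the other strand. Antisense RNA over ste11 passed the filter only in D. There it was at 4.95, 0.962 and 2.43 CPM in hrp1Δhrp3Δ and 3.82, 4.12 and 3.28 CPM in prf1Δ, above every WT library at 0.471, 0.373 and 0 CPM. The WT group held 3 counts in all, and the ratio of pooled levels was 6.66 in hrp1Δhrp3Δ (95% interval 2.03 to 34.5, counting error only) and 11.1 in prf1Δ (3.61 to 55.1). With all libraries edgeR did not call it (adjusted p = 0.0572 and 0.0700), but in hrp1Δhrp3Δ it was called with protein-coding scaling (4.37, adjusted p = 0.0280) and by DESeq2 (4.23, adjusted p = 0.0202). Without the 3 poor libraries it was called in prf1Δ (2.68 ± 0.79, adjusted p = 0.0163) and in hrp1Δhrp3Δprf1Δ (3.29 ± 0.85, adjusted p = 0.0111), where ste11 sense RNA was not. The antisense entries of the mfm genes had at most 4 counts in any library.

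Over the 19 comparisons with WT, 20 of 101 tested antisense pairs were called higher and 4 lower. Among the groups with a call they numbered 3 of 5 in hrp3Δ of B, beside 50.5% of 3305 tested antisense entries of protein-coding genes, 3 of 5 in hrp1Δhrp3Δ, beside 68.7%, and 1 of 5 in hrp1Δ, beside 13.7%. In the hrp1-CT(hrp3)-labelled libraries 2 of 6 were called, beside 76.3%, and 5 of 6 with protein-coding scaling, and in the hrp3Δ-labelled ones of A-b1 2 of 5, beside 58.1%. In D 3 of 7 were called in each of hrp1Δhrp3Δ, prf1Δ and hrp1Δhrp3Δprf1Δ, beside 36.1%, 44.1% and 34.8%, and 5 of 7 in hrp1Δhrp3Δ with protein-coding scaling or DESeq2. In the other groups 1 was called in fft3Δ (beside 10.3%), hrp1Δ of A-b1 (12.5%), the fft2Δ-labelled libraries (8.9%) and snf22Δ (11.3%). In the remaining 7 comparisons with WT edgeR called 0 of 35 pairs, with 3 at an unadjusted p under 0.05 and 0 by DESeq2. The shares of all antisense entries called there were 1.92% in mit1Δ and in swr1Δ, 0.225% in the rrp1Δ-labelled libraries, 1.18% in rrp2Δ, 3.44% in irc20Δ, 0% in fft1Δ and 5.86% in the hrp3-CT(hrp1)-labelled libraries. Between mutants, 3 of 5 were called for hrp3Δ against hrp1Δ of B (beside 41%), 2 of 5 for hrp1Δhrp3Δ against hrp3Δ (15.1%), 2 of 5 for hrp1Δhrp3Δ against hrp1Δ (60.7%) and 2 of 6 between the swaps (72%). Between hrp1Δhrp3Δprf1Δ and prf1Δ edgeR called 0 of 7, beside 0%, with 0 at an unadjusted p under 0.05 and 0 by DESeq2. For the differences between experiments it called 0 of 5 for hrp1Δ (beside 1.33%), 0 of 5 for hrp3Δ (4.45%) and 0 of 6 for hrp1Δhrp3Δ (0%), with 1, 0 and 0 at an unadjusted p under 0.05. The mam1 and sxa2 antisense rises in B, C and D thus stood among 34.8% to 76.3% of antisense entries called, apart from that of mam1 in hrp1Δ of B.

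Other genes of the mating pathway were counted in lists of signalling genes, of genes upstream of Ste11, of fusion genes and of further mating genes. The upstream list mixes genes of opposing roles, such as pat1, for a kinase inhibiting meiosis, and mei3, for an inhibitor of Pat1. Its counts therefore do not show whether the pathway was more or less active. In snf22Δ 5 of 9 genes of the pheromone signalling cascade were lower and none higher, beside 20.5% of protein-coding genes lower, with a median log2 fold change of -0.38 beside 0.00467 for all protein-coding genes. They included ste4, an adaptor of the MAP kinase kinase kinase Byr2 (-1.63 ± 0.16), and spk1, the MAP kinase (-0.99 ± 0.14). Of 14 tested genes acting upstream of or on Ste11, 6 were lower, among them mei2, an RNA-binding protein of meiosis (-1.45 ± 0.25), and gpa2, a G protein subunit of glucose sensing (-1.45 ± 0.10). Of 8 fusion genes 4 were lower. Of 6 further mating genes 1 was lower, map1, for a MADS-box factor of P-cell genes (-2.39 ± 0.50), and 2 were higher, krp1, for a processing protease (0.31 ± 0.04), and sxa1, for a protease of mating (0.39 ± 0.05).

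In the hrp1-CT(hrp3)-labelled libraries 6 of 9 signalling genes were lower and 1 higher, beside 49.4% of protein-coding genes lower, with a median of -0.44 beside -0.24 for all protein-coding genes. The lower ones included ste4 (-2.36 ± 0.11) and byr1, the MAP kinase kinase (-1.61 ± 0.24), and the higher one was ste6, an exchange factor of Ras1 (2.67 ± 0.96). Of the upstream genes 11 of 14 were lower, mei2 by -1.77 ± 0.15. In the hrp3-CT(hrp1)-labelled libraries 4 of 9 signalling genes were higher, ste4 among them (0.84 ± 0.09), and none lower, beside 5.04% of protein-coding genes higher. Of 14 upstream genes only 1 was called, mei2 (1.27 ± 0.13, higher). The median of that list was 0.00742, beside 0.0162 for all protein-coding genes. Of 7 further mating genes only 1 was called, map1 (0.76 ± 0.20, higher). In hrp3Δ of B 4 of 9 signalling and 6 of 14 upstream genes were lower and none higher, beside 30.9% of protein-coding genes lower, with byr1 at -2.01 ± 0.30. In hrp1Δhrp3Δ of B 2 signalling genes were higher (ste6 at 2.14 ± 0.54 and byr2 at 0.44 ± 0.10) and 2 lower (byr1 at -2.16 ± 0.30 and ste4 at -0.53 ± 0.18), 4 upstream genes were lower and none higher, and of 9 fusion genes 4 were higher and 2 lower, beside 7.94% of protein-coding genes higher and 42.6% lower.

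In hrp1Δ of A-b1 10 of 14 upstream genes were higher and none lower, beside 14.2% of protein-coding genes higher, with a median of 0.71 beside -0.01 for all protein-coding genes, among them git3, a glucose receptor gene (1.81 ± 0.28). Of the signalling genes 5 were higher, and ste4 was lower (-1.73 ± 0.26). In the fft2Δ-labelled libraries 9 upstream and 5 signalling genes were higher and none of either list lower, beside 19% higher, and in irc20Δ 7 and 2 were higher, beside 13.4%. The hrp3Δ-labelled libraries were mixed, with 6 upstream genes higher and 2 lower and 2 signalling genes higher and 3 lower, beside 14% higher and 21% lower. Of 8 fusion genes 3 were higher in each of the fft2Δ-labelled, fft3Δ, hrp1Δ, hrp3Δ-labelled and mit1Δ groups of A-b1, beside 13.3% of protein-coding genes higher in fft3Δ and 6.55% in mit1Δ, and none was lower in that batch. Of 6 further mating genes, mam3, the M-cell adhesin gene, was higher in 6 groups of A-b1, with log2 fold changes of 1.18 to 1.71. In D, 1 upstream gene was called in prf1Δ (mei2, 2.74 ± 0.85), and no fusion or further mating gene was called in any group.

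Over the 19 fold changes, the genes most like ste11 among 4787 protein-coding genes were eis1 (r = 0.945), mpe1 (0.930), pyp1 and pas1 (0.928 each) and exg1 (0.917). Among the members the closest was map3 (r = 0.827), followed by mam1 (0.614) and fus1 (0.587), and sxa2 was the farthest (-0.0893). The nearest gene to mam1 was bem46 (0.961), to map3 oca2 (0.858), to map4 mcm2 (0.856), to sxa2 cid11 (0.806) and to fus1 myo2 (0.918). For mam2 it was the gene with the identifier SPCC417.11c (0.843). These are descriptions over 19 points that share WT libraries within each experiment.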

How the data were processed

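Strand-specific, paired-end reads of polyadenylated RNA (NEBNext Ultra II Directional) were checked with FastQC and assigned by the authors with Kallisto to the Ensembl v55 transcripts of genome build ASM294v2, with a second entry per transcript, marked rc, that is read here as its antisense strand. The estimated counts deposited by the authors came from Kallisto per entry and were not normalised; the TPM deposited beside them were scaled by effective length and library. Each library had 1 table of 13994 entries, and 0 columns of other samples were met. Members and gene lists were chosen with earlier results of these data known.

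The counts were rounded and then fitted with edgeR 4.0.16 (limma 3.58.1, R 4.3.3), separately for the 5 sets of libraries (A-b1, A-b2, B, C, D), with TMM factors, filterByExpr (minimum count 10, minimum total 15), a quasi-likelihood F-test and Benjamini-Hochberg adjustment over all entries tested, at 0.05. Differences between experiments were fitted as interactions over 2 sets. All members were named, and list genes could be named where called in a comparison with WT; likeness was Pearson's r over the 19 fold changes, giving the 5 genes nearest to ste11 and the nearest to each other member tested in every fit. Alternatives were DESeq2 1.42.0, RLE factors, TMM factors from protein-coding sense entries, no filter, a replicate block, only the 2 groups compared, each library left out, and the 3 poor libraries of D left out. The fit was tested on counts simulated with the same spread in every set. That spread was smaller than the biological coefficient of variation estimated in A-b1 (0.184) and D (0.649). The simulation therefore does not show how well the fit works in D. Intervals cover counting error only, and libraries with few counts are the less precise. Names, biotypes and overlaps came from RefSeq (6851 of 6997 sense entries matched). The overlaps were found from its gene coordinates, and sequences were not used here. Figures used matplotlib 3.10.9, numpy 2.4.6 and pandas 2.3.3.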

Additional observations from a re-analysis of the deposited data

Results flagged for a closer look

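The effect of a deletion on ste11 differed between experiments by a test of the difference itself. For hrp1Δ, the log2 fold change in B minus that in A-b1 was -2.04, with ste11 not called in B and higher in A-b1. For hrp3Δ the same difference was -1.77, where the A-b1 libraries are the hrp3Δ-labelled ones whose hrp3 entry was not lower than in WT. For mam1 the difference for hrp1Δ was -1.07, with the gene higher in A-b1 and not called in B. The 3 differences kept their sign in all 15 alternatives, and that of mam1 missed the threshold in 8 of them. Experiment and batch cannot be told apart here.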

How the results depend on the processing

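Of 82 calls of a member in a comparison, DESeq2 kept 77, RLE factors 81, protein-coding TMM factors 78, no filter 77 and the replicate block 76. Fits of only the 2 groups compared kept 56 of 74. The calls beyond these 74 were not tested there, since their entries did not pass the filter on low counts. Leaving out the 3 poor libraries kept 10 of 10, and leaving out single libraries 396 of 491. No sign was reversed. Members called became 3 with DESeq2 in fft2Δ, and with only 2 groups fitted 1 in fft2Δ, 2 in hrp3Δ, 1 in mit1Δ, 0 in rrp1Δ, 0 in rrp2Δ and 1 in irc20Δ of A-b1. For hrp3Δ against hrp1Δ in B they became 2 with protein-coding factors. For hrp3-CT(hrp1) they became 1 with DESeq2, no filter, the block or 2 groups. For hrp1-CT(hrp3) they became 4 with protein-coding factors and 5 with DESeq2. In D, prf1Δ had 1 with DESeq2, RLE, protein-coding factors, no filter or 2 groups and 2 without the 3 poor libraries, hrp1Δhrp3Δ had 0 with 2 groups, and hrp1Δhrp3Δprf1Δ had 1 without the poor libraries and 1 against prf1Δ with 2 groups. Antisense calls became 5 of 6, against 2, in hrp1-CT(hrp3) with protein-coding factors, 5 of 7, against 3, in hrp1Δhrp3Δ of D with protein-coding factors or DESeq2, and 0 of 5, against 1, in fft2Δ with DESeq2. The cause was not tested. Same-numbered libraries did not deviate together (correlations of -0.615 to 0.678, with all 3 over 0.1 in 0 of 24 comparisons, and every sample closest to its own number in 1), so the numbers were not taken as pairs; under the block the hrp1Δ difference between B and A-b1 had 1 member, an alternative chosen after seeing the data as were all for these differences. Without single libraries the counts ran from 1 to 6 in fft2Δ, 1 to 2 in fft3Δ, 2 to 4 in hrp1Δ and hrp3Δ, 1 to 4 in mit1Δ, 0 to 2 in rrp2Δ and 0 to 4 in irc20Δ of A-b1, from 0 to 1 for hrp1Δhrp3Δ against hrp3Δ, in hrp3-CT(hrp1), and in hrp1Δhrp3Δ and prf1Δ of D, from 3 to 4 in hrp1Δhrp3Δ of B, from 4 to 5 in hrp1-CT(hrp3) and from 1 to 4 for the hrp1Δ difference. The libraries behind these ends were WT replicate 1 (1 in fft2Δ and mit1Δ, 2 in hrp3Δ, 0 in rrp2Δ and irc20Δ), WT replicate 3 (2 in fft3Δ and rrp2Δ), fft2Δ replicate 2 (3), mit1Δ replicate 1 (1), rrp2Δ replicate 1 (0), irc20Δ replicates 1 (1) and 2 (0), hrp3Δ replicate 3 of B (0), WT replicate 3 or hrp3-CT(hrp1) replicate 2 of C (1), WT replicates 1 and 2 of D (0 in hrp1Δhrp3Δ), WT replicates 1 and 3 of D (1 in prf1Δ) and, for the hrp1Δ difference, WT replicate 3 of A-b1 (4). Low counts limit A-b1, where WT replicates 2 and 3 are shallow, and D.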
